A study of Mus musculus with 8 samples.

Results

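Cells recognise foreign or misplaced RNA with a small set of receptor proteins, and 10 mouse genes for such RNA sensors and their adaptors were followed here: Ddx58, Ifih1, Dhx58, Mavs, Tlr3, Tlr7, Myd88, Eif2ak2, Zbp1 and Adar. They were picked by gene symbol from a table of 45777 genes, all 10 were found, and all 10 had enough reads to be tested. The libraries came from primary hepatic stellate cells, liver cells that store vitamin A and turn into matrix-producing myofibroblasts, taken from male wild-type C57BL/6 mice. In 4 libraries the cells had received a control siRNA (siControl) and in 4 an siRNA against the kinase PAK4 (siPAK4). Both groups were therefore transfected with double-stranded RNA, and untransfected cells were not analysed here. No source used here gives the siRNA sequences, the interval between transfection and RNA extraction, or the age of the mice. Nothing in them says whether the numbered replicates are separate animals or dishes, so p-values measure only the spread between these libraries, which may be technical.

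RIG-I (gene Ddx58) and MDA5 (Ifih1) are cytoplasmic helicases that bind double-stranded RNA and signal through MAVS, a protein of the mitochondrial outer membrane, to the kinases that switch on type I interferon genes. LGP2 (Dhx58) resembles them but lacks their signalling domains and tunes their activity. TLR3 and TLR7 read double-stranded and single-stranded RNA inside endosomes, and TLR7 signals through the adaptor MyD88. PKR (Eif2ak2) halts translation when it binds double-stranded RNA, ZBP1 recognises nucleic acid in the left-handed Z form and can trigger necroptosis, and ADAR1 (Adar) edits adenosine to inosine in double-stranded RNA so that the cell's own transcripts are less readily sensed. Several of these genes are themselves induced by interferon, through a DNA element called the interferon-stimulated response element (ISRE).

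Since that element links interferon to its target genes, the promoters of the members were read for it first. A RefSeq table of promoters (GRCm38.p6, the build also called mm10) held 250 bases before and 50 after each listed transcription start for 7 of the 10 genes, with 3 starts for Adar and 1 for each other gene. Dhx58, Tlr7 and Zbp1 had no entry. The core letters GAAANNGAAA were searched on both strands. An exact match lay in the promoters of Ddx58, Ifih1, Eif2ak2 and Myd88, while 3.44% of all 32851 promoters of the same length in the table held one, and 3.99% of 27025 genes. The closest stretch at Tlr3 and at the second and the third Adar start matched 7 of the 8 fixed letters, a likeness that 35.4% of all promoters reach, and Mavs matched no more than 5. In Ddx58, Ifih1 and Eif2ak2 the match began 3, 33 and 19 bases after the start, and in Myd88 it began 40 bases before it. These stretches of 30 bases show the 4 matches and, for Tlr3 and the third Adar start, a near match, with the matching or nearly matching 10 bases in capitals. Each reads in the direction of the gene. In Ddx58 and Tlr3 the element lies on the opposite strand and so appears as its reverse complement.
Ddx58, chr4:40239804-40239833, minus strand: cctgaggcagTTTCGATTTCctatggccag
Ifih1, chr2:62646206-62646235, minus strand: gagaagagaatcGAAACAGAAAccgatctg
Eif2ak2, chr17:78882535-78882564, minus strand: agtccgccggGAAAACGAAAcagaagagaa
Myd88, chr9:119340039-119340068, minus strand: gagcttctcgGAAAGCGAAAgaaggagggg
Tlr3, chr8:45410420-45410449, minus strand: agtgaatggcTTTCACTTTGtttagacaca
Adar, chr3:89730735-89730764, plus strand: gccttttcaaGGAAACGAAAgtgaactctg
A second interferon-related element, the STAT-binding GAS site with the letters TTCNNNGAA, matched in Eif2ak2, Myd88 and the third Adar window, against 8.30% of all promoters; in Myd88 it overlaps the ISRE match by 3 bases. A match of letters is a description of the window and shows no binding.

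With siPAK4, 6 of the 10 genes rose: the sensors Ddx58, Ifih1, Dhx58, Eif2ak2 and Zbp1, and the editing enzyme gene Adar. The mitochondrial adaptor gene Mavs and the endosomal receptor gene Tlr7 fell by small amounts, and Tlr3 and Myd88 did not pass the test. The test was edgeR's quasi-likelihood test over 17975 genes with a Benjamini-Hochberg adjusted p threshold of 0.05, by which 12.4% of all tested genes were higher, 14.5% lower and 26.9% changed in either direction. The median log2 fold change of the 10 was 0.74, beside 0.0052 over all tested genes. In 6 members every siPAK4 library lay above every siControl library, and in Mavs every one lay below. Over all tested genes, 14% were higher without overlap between the groups, 14.8% lower and 28.8% either. Levels below are read counts relative to library size (CPM), scaled by the TMM method, unless TPM (which also divides by transcript length) is named, and values per library are given in the order of replicates 1 to 4.

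The library siPAK4 replicate 3 stood apart from the others on the second principal component of all tested genes, at −41.1 against 10.3 to 17.0 for the other siPAK4 libraries. Without it the same 8 of the 10 genes were called: log2 fold changes were 0.93 for Ddx58, 1.18 for Ifih1, 1.48 for Dhx58, 0.71 for Eif2ak2, 2.22 for Zbp1, 0.82 for Adar, −0.26 for Mavs and −0.39 for Tlr7. Tlr3 (0.32, adjusted p = 0.062) and Myd88 (0.05, adjusted p = 0.60) again did not pass.

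**Figure D1:**
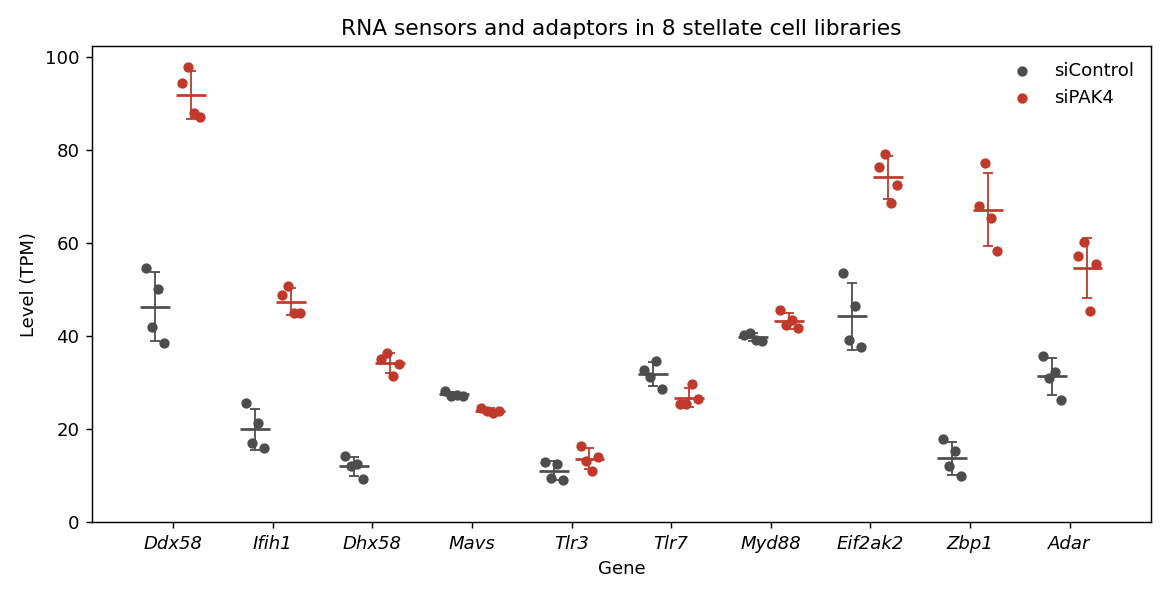
Level in TPM of each gene (horizontal axis) in the 4 siControl and 4 siPAK4 libraries; points are libraries, lines are group means and bars are 1 SD. Ddx58 moves from a mean of 46.3 to 91.8 TPM and Zbp1 from 13.7 to 67.2 TPM, while Mavs, Tlr7, Tlr3 and Myd88 stay close to their siControl levels.

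Among the RIG-I-like receptors, Ddx58 (NCBI gene 230073, chromosome 4, 40203777 to 40239825) was at 123, 96.7, 115 and 91.8 CPM in siControl. It was at 202, 208, 213 and 203 CPM in siPAK4. The groups did not overlap, and siControl had the wider spread: replicates 1 and 3 were above 2 and 4. It rose by 0.95 on the log2 scale (SE 0.0862, adjusted p = 1.6e-05), from 107 ± 15 to 206 ± 5.18 CPM (SD, n = 4 each).

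Ifih1 (NCBI gene 71586, chromosome 2, 62595618 to 62646255), whose product prefers long double-stranded RNA, was at 63.0, 42.6, 54.3 and 41.4 CPM in siControl. In siPAK4 it was at 113, 118, 116 and 113 CPM. Its siControl libraries fell in the same order of high and low pairs as those of Ddx58. The change was 1.19 on the log2 scale (SE 0.116, adjusted p = 3.1e-05).

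Dhx58 (NCBI gene 80861, chromosome 11, 100694884 to 100704271) was the least abundant of the 3 helicase genes and rose most among them. Its siControl libraries held 15.6, 13.6, 14 and 10.9 CPM and its siPAK4 libraries 36.5, 37.8, 37.2 and 38.7 CPM. The log2 fold change reached 1.47 (SE 0.0933, adjusted p = 2e-06). Of all tested genes, 1.14% had a higher log2 fold change than Dhx58, 1.81% than Ifih1 and 2.92% than Ddx58.

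Mavs (NCBI gene 228607, chromosome 2, 131234063 to 131248025), the adaptor that RIG-I and MDA5 share, went the other way. It was at 38.5, 37.6, 38.0 and 39.3 CPM in siControl and at 31.9, 30.7, 34.2 and 33.7 CPM in siPAK4. The groups did not overlap, but the step was small next to those of the receptors, at −0.24 on the log2 scale (SE 0.0578, adjusted p = 0.011). Scaling by library totals in place of TMM, or using FPKM, left the direction and ended the call (adjusted p = 0.057 and 0.055).

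The ratio of a receptor to its adaptor within a library does not depend on how libraries are scaled. Hence 10 pairs of genes, chosen with earlier results of these data known, were compared that way. In TPM, Ddx58 stood at 1.94, 1.54, 1.83 and 1.41 times Mavs in siControl. With siPAK4 the ratios were 3.83, 4.09, 3.74 and 3.64. Ifih1 passed from 0.584 to 0.907 times Mavs in siControl to 1.88 to 2.12 times in siPAK4. Dhx58 passed from 0.344 to 0.501 times to 1.34 to 1.52 times. Thus in every siControl library Ifih1 and Dhx58 were below Mavs in TPM, and in every siPAK4 library both were above it.

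On log2 count ratios, the shift against Mavs was 1.20 for Ddx58 (SE 0.112), 1.45 for Ifih1 (SE 0.154) and 1.72 for Dhx58 (SE 0.121). In each of these the groups were fully apart, which gives p = 0.0286 by a two-sided exact permutation test. That is the smallest that 4 against 4 libraries allow, and 0.0357 after Benjamini-Hochberg adjustment over the 10 pairs. Each receptor gene already lay wholly higher and Mavs wholly lower in siPAK4. The separation of these ratios was thus fixed, and its p adds no support. The helicases also shifted against each other: Dhx58 by 0.52 (SE 0.0593) and Ifih1 by 0.25 (SE 0.0483) relative to Ddx58, with the same exact permutation p and adjusted p. The 3 receptor genes thus rose by unequal amounts.

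**Figure D2:**
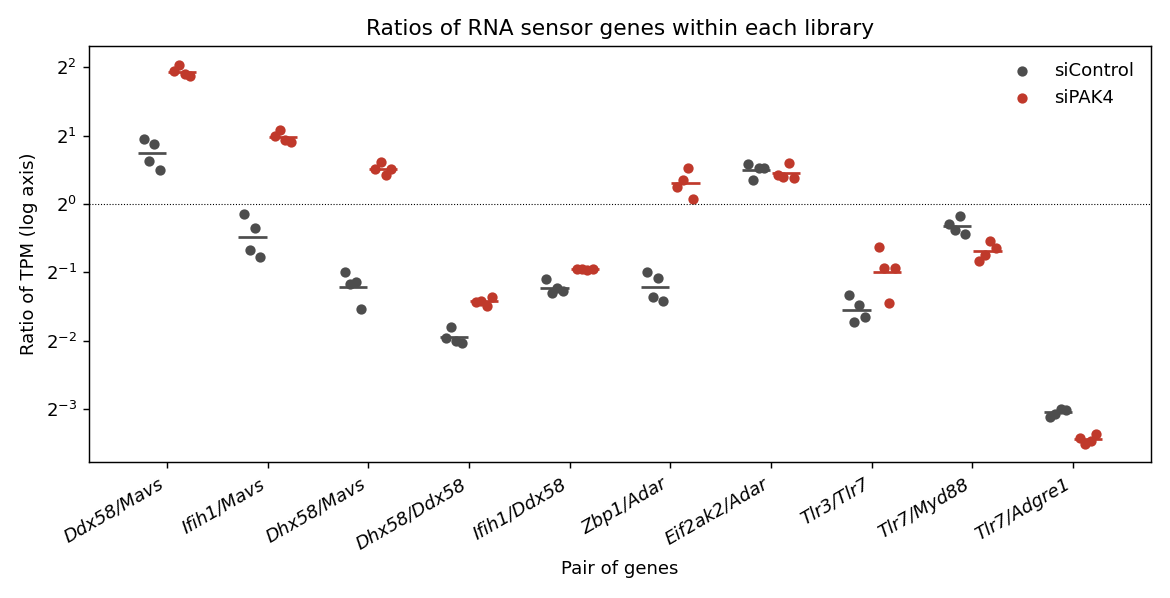
Ratio of TPM of 2 genes within each library, on a log axis; points are the 4 siControl and 4 siPAK4 libraries, lines are geometric means and the dotted line marks equal TPM. Ddx58, Ifih1 and Dhx58 gain on Mavs and Zbp1 gains on Adar with no overlap between groups, Eif2ak2/Adar overlaps, and Tlr7 loses against Myd88 and against Adgre1.

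Zbp1, Eif2ak2 and Adar, whose products bind double-stranded or Z-form RNA, rose as well. Zbp1 (NCBI gene 58203, chromosome 2, 173206612 to 173218959) was at 9.57, 6.36, 8.18 and 5.16 CPM in siControl and at 32.5, 39.0, 35.2 and 30.6 CPM in siPAK4. The groups were far apart. Its rise, 2.23 on the log2 scale (SE 0.162, adjusted p = 5.9e-06), was the largest among the 10 genes, and 0.328% of tested genes had a higher one.

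Eif2ak2 (NCBI gene 19106, chromosome 17, 78850504 to 78882572) was already abundant in siControl at 129, 94.6, 126 and 97.4 CPM. In siPAK4 it reached 179, 188, 183 and 180 CPM. All 4 siPAK4 libraries were above siControl, and the rise was 0.71 on the log2 scale (SE 0.0963, adjusted p = 0.00028). Its gene model overlaps the pseudogene Gm6548 and the gene Gm26637, which had 3218 and 752 counts over the siControl libraries and 4975 and 1704 over the siPAK4 libraries. No source used here gives the strand setting of the counting, so reads in the shared stretches cannot be assigned to 1 of these genes.

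Adar (NCBI gene 56417, chromosome 3, 89714469 to 89753455) was at 100, 85.5, 92.8 and 79.2 CPM in siControl and at 151, 161, 137 and 161 CPM in siPAK4. The groups did not overlap, and siPAK4 replicate 3 was the lowest of its group. The change was 0.77 on the log2 scale (SE 0.0791, adjusted p = 3.9e-05). The gene makes a long protein from an interferon-inducible start and a short one from other starts, and counts per gene do not separate them.

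Zbp1 gained on Adar by 1.49 in log2 count ratio (SE 0.157), with the groups apart (p = 0.0286 by the exact permutation test, adjusted p = 0.0357). Zbp1 went from 0.375 to 0.50 times the TPM of Adar in siControl to 1.05 to 1.44 times in siPAK4. Eif2ak2 and Adar moved side by side: their log2 ratio differed by −0.05 (SE 0.0833) between the groups, which overlapped (exact permutation p = 0.63, adjusted p = 0.63).

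**Figure D3:**
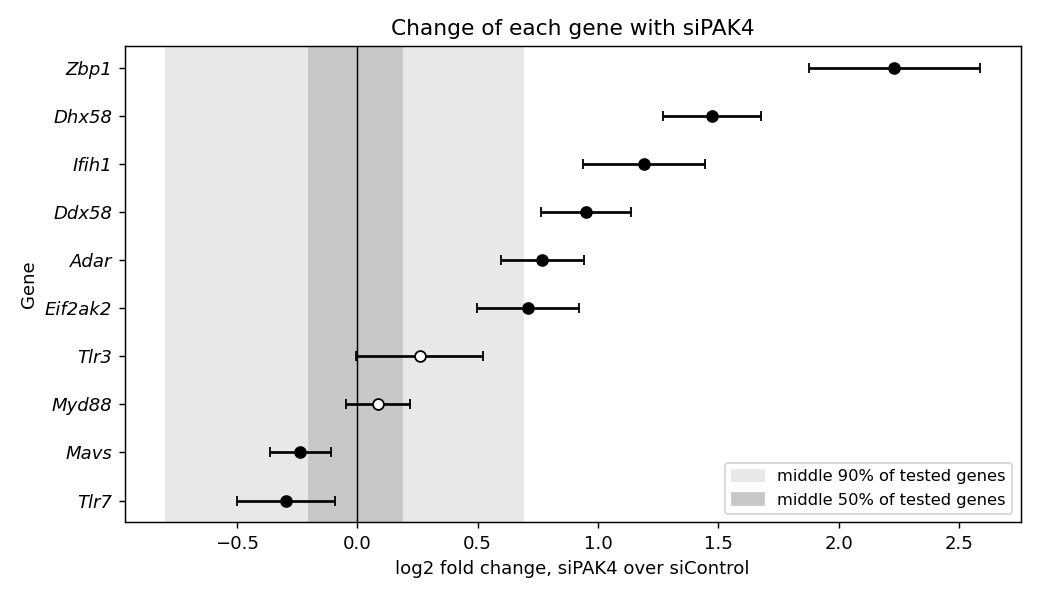
Log2 fold change of each gene, siPAK4 over siControl, with its 95% confidence interval from the quasi-likelihood fit; filled points passed an adjusted p of 0.05 and shaded bands hold the middle of all tested genes. Zbp1 lies highest at 2.23, and 6 genes lie at 0.71 or above, while Mavs and Tlr7 lie below 0.

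The endosomal receptors and their adaptor showed small or no called differences. Tlr3 (NCBI gene 142980, chromosome 8, 45395665 to 45411075) was at 26.5, 19.6, 25.7 and 19.5 CPM in siControl and at 31.1, 25.1, 23.9 and 29.1 CPM in siPAK4. The groups overlapped, and the log2 fold change was 0.26 (95% interval −0.0048 to 0.52, adjusted p = 0.14). Within siControl it had the same high libraries, 1 and 3, as the helicase genes. With library totals Tlr3 was called higher (log2 fold change 0.35, adjusted p = 0.042).

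Myd88 (NCBI gene 17874, chromosome 9, 119335934 to 119340018) was nearly level, at 35.6, 36.7, 35.3 and 36.4 CPM in siControl and 38.3, 35.3, 41.2 and 38.1 CPM in siPAK4. Its log2 fold change of 0.09 (95% interval −0.046 to 0.22, adjusted p = 0.33) did not pass, although its promoter holds the exact ISRE letters shown above. With library totals or FPKM it was called higher (log2 fold changes 0.17 in both, adjusted p = 0.039 and 0.042).

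Tlr7 (NCBI gene 170743, chromosome X, 167303380 to 167330574) was at 62.9, 58.9, 66.2 and 56.2 CPM in siControl and at 44.9, 44.2, 59.4 and 50.7 CPM in siPAK4. Only siPAK4 replicate 3 reached into the siControl range. The fall was small (log2 −0.29, SE 0.0932, adjusted p = 0.036), a call that did not hold up: it was lost in 10 of 18 alternative fits. Leaving out siControl replicate 1, 2 or 3 or siPAK4 replicate 1, 2 or 4 ended it (adjusted p from 0.063 to 0.11), whereas without siPAK4 replicate 3 the fall was larger (−0.39, adjusted p = 0.0008).

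Tlr7 is known from macrophages and plasmacytoid dendritic cells, and macrophage transcripts were plentiful in these libraries. Over all tested genes 12.4% were higher and 14.5% lower. Of 15 macrophage and Kupffer cell markers, 14 were tested, of which 9 were lower, 0 were higher and 5 missed the threshold. Their summed level was 9185 to 10644 CPM in siControl and 5139 to 8329 CPM in siPAK4, highest within siPAK4 in replicate 3, the library that was also highest for Tlr7. Most of that sum was Lyz2 alone, with means of 7815 CPM in siControl and 4850 CPM in siPAK4. In bulk libraries fewer cells of a type and less RNA per cell cannot be told apart, and the part of these markers in the Tlr7 result was not tested. Plasmacytoid dendritic cell markers were scarce apart from Tcf4, which other cells also express (415 CPM in siControl): Siglech had 8 counts over the siControl libraries and 0 over the siPAK4 libraries, and Klk1 was at 0 throughout.

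2 further endosomal receptors, picked out with their values known, were not called: Tlr8 had a log2 fold change of −0.21 (adjusted p = 0.33) and Tlr13 of −0.28 (adjusted p = 0.096). In both, as in Tlr7, siPAK4 replicate 3 was the highest siPAK4 library, at 68.6 CPM for Tlr8 and 211 CPM for Tlr13. Adgre1, a general macrophage gene, did not pass (0.14, adjusted p = 0.34) and had the highest log2 fold change of the 14 tested macrophage markers, among which Csf1r (−0.31), Lyz2 (−0.69) and Marco (−1.17) fell by as much as Tlr7 or more. Against Adgre1, Tlr7 fell by 0.43 in log2 count ratio (SE 0.0538), a comparison with that marker alone. The 4 siPAK4 ratios, 0.0883 to 0.0968 in TPM, lay below the 4 siControl ratios, 0.116 to 0.125 (exact permutation p = 0.0286, adjusted p = 0.0357). Relative to Myd88 the fall of Tlr7 was 0.39 (SE 0.0905), also with the groups apart (exact permutation p = 0.0286, adjusted p = 0.0357). The rise of Tlr3 relative to Tlr7, 0.57 (SE 0.181), did not pass (exact permutation p = 0.0571, adjusted p = 0.0635).

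Compared per transcript length, the order of the sensors changed between the groups. In siControl, Ddx58 (46.3 ± 7.45 TPM), Eif2ak2 (44.2 ± 7.25) and Myd88 (39.7 ± 0.869) led with overlapping libraries. Tlr7 (31.9 ± 2.54), Adar (31.3 ± 3.92) and Mavs (27.5 ± 0.502) followed. Below them stood Ifih1 (19.98 ± 4.45), Zbp1 (13.7 ± 3.53), Dhx58 (12.01 ± 1.98) and Tlr3 (11.02 ± 2.03), each overlapping the next.

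In siPAK4, Ddx58 stood alone at the top with 91.8 ± 5.18 TPM, above Eif2ak2 (74.1 ± 4.59) in every library. Zbp1 had moved from the eighth place to the third with 67.2 ± 7.78 TPM, overlapping Eif2ak2 and Adar (54.6 ± 6.39). Ifih1 (47.4 ± 2.88) overlapped Myd88 (43.3 ± 1.75), and from there Dhx58 (34.2 ± 2.12), Tlr7 (26.8 ± 2.04), Mavs (24.0 ± 0.460) and Tlr3 (13.6 ± 2.26) were each apart from their neighbours. The 10 genes together summed to 241 to 316 TPM in siControl and 451 to 506 TPM in siPAK4.

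Within siControl, the genes that rose also varied together, and Tlr3, which did not pass, and Tlr7, which fell, varied with them. After each group's mean was subtracted from log2 CPM, Zbp1 deviated by 0.42, −0.16, 0.20 and −0.46 in siControl, and Ifih1 by 0.35, −0.22, 0.13 and −0.26. The deviations of Ddx58 in siControl were 0.22, −0.13, 0.12 and −0.21, and in siPAK4 they stayed between −0.03 and 0.05. Those of Tlr7 in siControl were 0.05, −0.05, 0.12 and −0.12. In siControl alone the Pearson r of Ddx58 was 0.98 with Tlr3, 0.88 with Tlr7, −0.25 with Mavs and −0.88 with Myd88. In siPAK4 alone these values were −0.97, 0.66, 0.28 and 0.38. Over the 8 libraries the deviations of Ddx58 had a Pearson r of 0.98 with those of Ifih1, 0.96 with Eif2ak2, 0.94 with Zbp1, 0.84 with Dhx58 and 0.70 with Adar. The siControl libraries, with their wider spread, weigh most in these values, and in siPAK4 the genes that rose did not all move together: in replicate 3 Adar was at −0.15 and Ddx58 at 0.05. Over the 8 libraries Tlr3 and Tlr7 had r of 0.68 and 0.51 with Ddx58. Mavs and Myd88 had r of −0.04 and −0.19 with Ddx58 and of 0.78 with each other. That last value came from siPAK4, where both were lowest in replicate 2 (−0.09 and −0.11) and highest in replicate 3 (0.07 and 0.11), whereas in siControl neither varied by more than 0.04. All of these genes share the same libraries, so the values are descriptions.

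**Figure D4:**
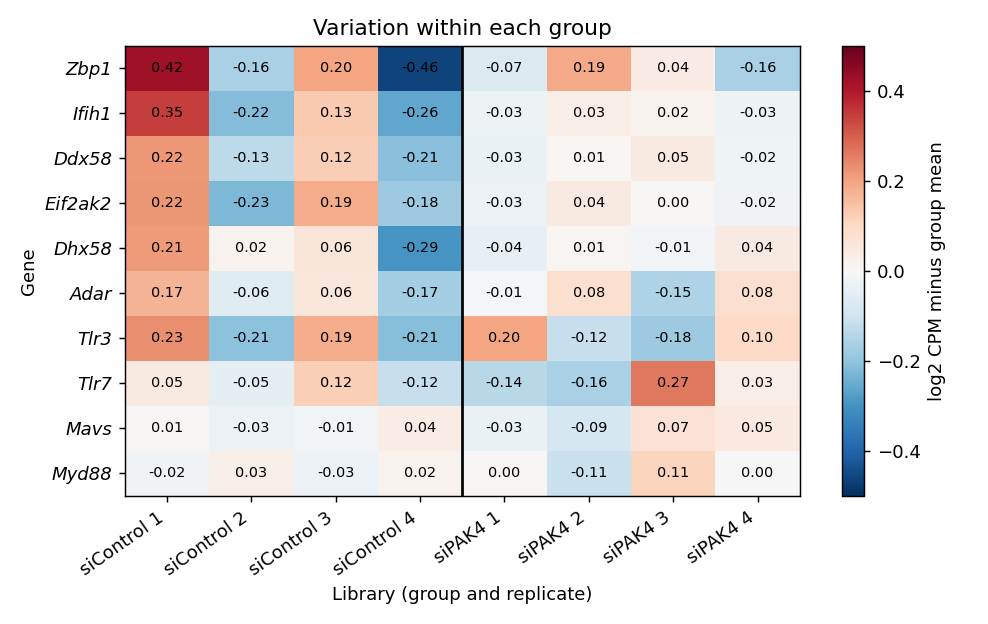
Log2 CPM of each gene minus its group mean (colour and printed values) in each library. In siControl replicates 1 and 3 the first 7 genes and Tlr7 lie above their mean and in replicate 4 below it. Mavs does not share that pattern, and Myd88 has small siControl deviations of the opposite sign (−0.02, 0.03, −0.03 and 0.02). Tlr7 stands out in siPAK4 replicate 3 with 0.27.

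Among 11351 other genes of at least 5 CPM, the 5 whose deviations were most like the mean of the 10 were Irgm1, Acbd3, Rtp4, Ifi205 and Ifit1, with r from 0.97 to 0.98 over 8 libraries. That mean ran from −0.19 to 0.19 in siControl and only from −0.02 to 0.02 in siPAK4. The siControl libraries therefore weigh most in these r, which are the highest of all genes compared. Irgm1, Rtp4, Ifi205 and Ifit1 are known as interferon-induced genes. Rtp4 was at 37.1, 24.3, 30.9 and 19.8 CPM in siControl, the same order of libraries as Zbp1. It rose to between 85.2 and 99.2 CPM in siPAK4. Acbd3, which encodes a Golgi protein, did not pass (log2 fold change 0.08, adjusted p = 0.30).

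The genes around these sensors were read from 8 further lists. The counts for each list below stand beside 12.4% higher and 14.5% lower over all tested genes. Of 20 interferon-induced effectors, 19 rose and 0 fell, and the exception, Ifi27, had a log2 fold change of −0.09; the median was 1.35. Usp18, which restrains the interferon receptor, had a log2 fold change of 2.24, Ifi35 of 1.15 and Gbp2 of 1.14, each with an adjusted p of 5.9e-06 or below. Their summed level was 917 to 1194 CPM in siControl and 2097 to 2305 CPM in siPAK4.

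Interferon genes themselves were close to the limit of detection. Of 21 ligand genes, 14 had no read in any library and only Ifnz had enough to test (0.36, adjusted p = 0.63). Ifnb1, which encodes interferon beta, had 0, 0, 2 and 0 counts in the siControl libraries. The siPAK4 libraries had 10, 13, 30 and 3. Every siPAK4 library was above every siControl library, though siPAK4 replicate 4 by a single count. The pooled ratio was 27.0, with a 95% interval of 7.13 to 228 that covers counting error only (exact permutation p over libraries = 0.0286). Those counts correspond to at most 0.499 CPM, and Ifnb1 failed the filter on low counts. With no filter edgeR gave it an adjusted p of 0.011.

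The regulators of RIG-I and MDA5 had a median of 0.13: 6 of 18 tested genes rose, 2 fell and 10 did neither by the test. The helicase-family gene Ddx60 (1.51, from 19.1 to 54.4 CPM), Oasl1 (1.85) and Nlrc5 (0.57) rose with adjusted p of 5.2e-05 or below. The 2 that fell, picked out with their values known, were Laptm5 (−0.66, adjusted p = 0.00013) and the deubiquitinase gene Cyld (−0.21, adjusted p = 0.015).

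Downstream of MAVS, 10 of 26 genes rose, 0 fell and 16 missed the threshold (median 0.14). Irf7, the transcription factor that amplifies interferon production, was at 52.0, 31.3, 41.0 and 26.5 CPM in siControl and at 193, 202, 179 and 189 CPM in siPAK4. That is a log2 fold change of 2.34 (adjusted p = 1.1e-05), and its siControl libraries had the same order as those of Zbp1. Ifit3, which can bridge MAVS and TBK1 (2.72, adjusted p = 3.6e-05), and the NF-kB gene Nfkb1 (0.54, adjusted p = 5.1e-05) rose as well. Picked out with their values known, the kinase gene Tbk1 rose by less (0.37, adjusted p = 0.00064) and Irf3, the factor that TBK1 phosphorylates, did not pass (0.04, adjusted p = 0.70).

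**Figure D5:**
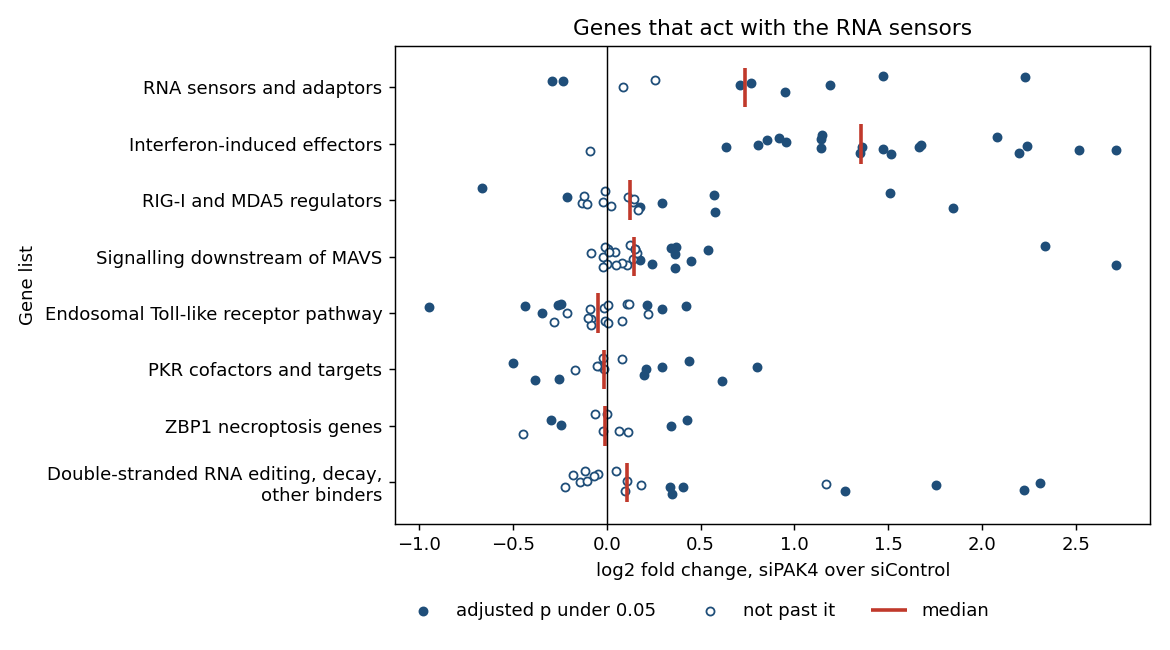
Log2 fold change, siPAK4 over siControl, of each tested gene in 8 lists (rows); filled points passed an adjusted p of 0.05 and the vertical line is the list's median. The effectors have a median of 1.35, the 10 sensor and adaptor genes of 0.74, and the other 6 lists plotted have medians between −0.048 and 0.14.

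The endosomal Toll-like receptor pathway had 3 of 22 genes higher and 5 lower, with 14 past neither side of the test (median −0.048). Over all tested genes 12.4% were higher and 14.5% lower. Tlr9, the DNA-reading relative of Tlr7, fell from a low level of 1.71 to 0.889 CPM (−0.95, adjusted p = 0.0042), and the transcription factor gene Irf5 fell (−0.44, adjusted p = 0.0086), while the kinase gene Irak2 rose (0.29, adjusted p = 0.0027). Also picked out with their values known, Unc93b1, the chaperone of the endosomal receptors (−0.26, adjusted p = 0.011), and Ticam1, the adaptor of TLR3 (−0.35, adjusted p = 0.025), fell, as did Hsp90b1 (−0.24, adjusted p = 0.025), while Irak1 (0.22, adjusted p = 0.032) and Irak3 (0.42, adjusted p = 0.027) rose. The macrophage markers above moved in the same direction as the genes of this list that fell, and their part in these values was not tested.

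PKR cofactors and targets went both ways, with 6 of 15 higher and 3 lower (median −0.016; 6 missed the threshold). The genes that rose most clearly were those of the integrated stress response, to which PKR is 1 of several inputs: Atf4 (0.44), Ddit3 (0.80) and Ppp1r15a (0.62), with adjusted p of 9.6e-05 or below. The 3 that fell, named with their values known, were Eif2ak3 (−0.38), Nlrp1a (−0.50) and Dnajc3 (−0.26). Of 10 genes around ZBP1-driven cell death, 2 rose and 2 fell, and 6 missed the threshold (median −0.0083), beside 12.4% and 14.5% of all tested genes. Mlkl, the executioner of necroptosis (0.43, adjusted p = 0.00031), and Casp8, which restrains it (0.34, adjusted p = 0.00049), rose, and the inflammasome gene Nlrp3 fell (−0.24, adjusted p = 0.034), as did Casp6, named with its value known (−0.30, adjusted p = 0.045).

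Among genes that edit, degrade or otherwise bind double-stranded RNA, 19 of 21 were tested, 7 rose, 0 fell and 12 missed the threshold (median 0.11). The oligoadenylate synthetase genes Oas1a (1.27), Oas2 (1.76) and Oas3 (2.22), whose enzymes make the messenger that activates RNase L, rose with adjusted p of 7.9e-05 or below. Both Ifit3 and Oas1a have close paralogues, and how reads that match several genes were counted is not known. Adarb2, a relative of Adar, was at 0 in every library.

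The whole data set sets these limits. Libraries held 55728583 to 61535063 counts. Pak4 was at 16.2 to 18.6 CPM in siControl and 5.17 to 7.73 CPM in siPAK4 (log2 fold change −1.44, adjusted p = 9.4e-06), which fits the labels. The 2 most abundant stellate cell markers, Dcn (425 CPM in siControl) and Reln (30.9 CPM), were present and not called. Lrat was nearly absent (0.0269 CPM in siControl). Of 11 tested stellate cell markers 1 rose, Hgf (log2 fold change 0.38), and 3 fell, Pdgfrb (−0.85), Des (−0.54) and Lum (−1.03). Macrophage (Lyz2, 7815 CPM) and endothelial (Cdh5, 1620 CPM, and Pecam1) transcripts were abundant, so the cell type behind a change is not known. The endothelial markers had 2 of 11 higher and 5 lower, and their sum went from 4968 to 5041 CPM in siControl to 2856 to 4210 CPM in siPAK4. Hepatocyte markers summed to 2.27 to 4.99 CPM in siControl and 8.84 to 24.7 CPM in siPAK4 (4 of 5 tested higher, 0 lower), and neutrophil markers to 6.86 to 11.4 CPM and 10.8 to 14.1 CPM (0 of 1 called). Conventional dendritic cell (1 of 5 higher, 1 lower), plasmacytoid (0 of 2 called), lymphocyte (0 of 6 higher, 1 lower) and cholangiocyte markers (0 of 5 higher, 1 lower) were the other lists, with the neutrophil genes Ly6g, Elane and Retnlg at 0 in every library. The part of these markers in the results above was not tested. The balance of calls over all genes depends on scaling: 46.1% of called genes were higher with TMM, 67.6% with library totals and 69.1% with FPKM.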

How the data were processed

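The authors deposited 1 table with read counts (whole numbers, not normalized), FPKM (scaled to library size and transcript length) and TPM (scaled to a fixed total per library), per the file headers. The submitters' processing notes name StringTie 2.1.3b, the aligners Bowtie2 2.3.4.1 and HISAT2 2.1.0, and build mm10, and per the labels' protocols the kit was a stranded mRNA kit. No source used here gives the counting step or its strand setting. All 24 value columns were matched to samples by library name, with 0 left over. Libraries of a group differed beyond sampling noise (chi-square per degree of freedom of 13.7 or more).

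Counts were filtered with filterByExpr (minimum count 10), scaled by TMM and tested with edgeR 4.0.16 (quasi-likelihood, robust), p-values being adjusted by Benjamini-Hochberg over the 17975 genes kept. Standard errors came from the F statistic. Pair ratios used counts plus 0.5. The procedure was also run on simulated counts with a small share of changed genes in random directions, which does not test how calls depend on scaling. DESeq2 1.42.0, limma 3.58.1, other scalings, filters and units, the replicate block and leaving out each library served as alternatives. Named from each list were the 3 smallest adjusted p among called genes, or the 2 most abundant, and the 5 genes whose deviations were most like the members'; genes outside this rule are marked in the text, except markers and genes at or near 0. The members, lists and pairs were chosen with earlier results of these data known.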

Additional observations from a re-analysis of the deposited data

How the results depend on the processing

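Over 18 alternative fits, the rises of Ddx58, Ifih1, Dhx58, Eif2ak2, Zbp1 and Adar kept their direction and their call, with log2 fold changes from 0.64 (Eif2ak2) to 2.38 (Zbp1) and adjusted p of 0.0063 or below. The number of the 10 genes called was 8 and ranged from 7 to 8, also without each library in turn; which genes it held differed, since with library totals 8 were higher and 0 lower. Log2 fold changes ranged from −0.26 to −0.13 for Mavs, −0.39 to −0.18 for Tlr7, 0.19 to 0.35 for Tlr3 and 0.05 to 0.17 for Myd88, and no direction turned. Over all genes, 4832 were called; limma on log2(TPM + 1) called 3008 and on log2(TPM + 0.1) 2954, and leaving out 1 library gave 3543 to 5494. The cause was not tested. No pairing by replicate number showed in the values: the correlations of same-numbered libraries were 0.15, 0.010, 0.16 and −0.14, and 0 of 4 correlated best with their own number. Such correlations cannot tell whether the samples were paired by animal or batch. With the replicate block 4587 genes and 8 of the 10 were called. Of the 10 pairs of genes 8 passed, among them those against Mavs, whose separation was fixed by the levels of their genes. Under the replicate block 0 did, because 4 pairs cannot give an exact p below 0.125. With 5 added to each count 8 passed. The share of promoters with an exact ISRE match was 2.98% before the start alone, and that for GAS 7.02%. Among the members only the exact ISRE match of Myd88 lies before the start, and those of Ddx58, Ifih1 and Eif2ak2 lie after it. Low counts kept 20 of 21 interferon ligands and several cell type markers, such as Lrat, 6 of 8 plasmacytoid and 5 of 10 hepatocyte markers, out of the test.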

Other observations

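The 6 genes that rose varied more between the siControl than between the siPAK4 libraries. Their coefficient of variation was 14.04% in siControl and 2.51% in siPAK4 for Ddx58, 20.4% and 2.17% for Ifih1, 14.2% and 2.501% for Dhx58, 16.3% and 2.21% for Eif2ak2, 26.6% and 10.6% for Zbp1, and 10.2% and 7.45% for Adar. Tlr3, which did not pass the test, had 16.8% and 12.4%. Mavs, Tlr7 and Myd88 were the other way round, with 1.89% and 5.04%, 7.20% and 14.1%, and 1.93% and 6.34%. Over 11361 genes of at least 5 CPM, 39.7% had the higher coefficient in siControl, and the medians were 6.46% in siControl and 7.57% in siPAK4. With 4 libraries a group the difference in spread was not tested.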
